A study of Mus musculus with 2 samples.

Results

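The 9 transcription factors described here, Sall1, Spi1, Irf8, Mef2a, Mef2c, Runx1, Maf, Cebpa and Cebpb, set and maintain the identity of microglia, and they were followed as 9 named genes among the 19537 of the count matrices. They were measured in microglia of adult PARK7/DJ-1 KO mice, which carry a gene-trap allele of Park7 on a background backcrossed to C57BL/6NCrl, and of their wildtype littermates. Both groups had received lipopolysaccharide (LPS), a bacterial component that causes systemic inflammation, by intraperitoneal injection 24 h before isolation, so that the injection was common to both groups and genotype was the labelled difference. Cells sorted as CD11b+CD45int were profiled by Drop-seq, a droplet method that tags the 3' ends of transcripts with cell barcodes and unique molecular identifiers (UMIs). Each group, called KO LPS and WT LPS, was 1 library in which 2 mice were pooled, one of each sex. With 1 library per genotype no test between genotypes is possible, the genotype and the library cannot be told apart, and every interval given is a 95% interval that covers counting error only.

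PU.1, the ETS factor encoded by Spi1, opens myeloid enhancers and is required for all macrophages, and Irf8 often binds beside it. The MEF2 factors, Runx1 and c-Maf (Maf) act on the enhancers that PU.1 opens, while the zinc finger factor Sall1 is largely restricted to microglia within the macrophage lineage and holds them in their resting, homeostatic state. C/EBPα (Cebpa) supports the myeloid lineage, and C/EBPβ (Cebpb) is the family member known for inducing acute-phase and inflammatory genes.

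The promoters of Cebpa and Cebpb are shown because these relatives had the furthest apart ratios of the 9 genes, and those of Mef2a and Mef2c because they bear the letters of a PU.1 or MEF2 motif. The sequences are from RefSeq (GRCm38.p6), run from 250 bases before to 50 bases after a start site, and are written 5′ to 3′ on the strand of the gene. Capitals mark GAGGAA, the core of PU.1 motifs, and TATTTNTA, a MEF2 motif, on either strand (TAAAAATA is the MEF2 motif read from the other strand).
Cebpa promoter, chr7:35119043-35119342, plus strand: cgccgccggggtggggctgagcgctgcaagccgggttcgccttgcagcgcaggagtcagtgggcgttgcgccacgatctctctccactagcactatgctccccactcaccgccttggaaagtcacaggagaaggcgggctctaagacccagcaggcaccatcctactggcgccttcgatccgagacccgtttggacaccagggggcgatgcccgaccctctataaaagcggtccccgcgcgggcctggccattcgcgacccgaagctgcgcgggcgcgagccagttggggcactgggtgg
Cebpb promoter, chr2:167688665-167688964, plus strand: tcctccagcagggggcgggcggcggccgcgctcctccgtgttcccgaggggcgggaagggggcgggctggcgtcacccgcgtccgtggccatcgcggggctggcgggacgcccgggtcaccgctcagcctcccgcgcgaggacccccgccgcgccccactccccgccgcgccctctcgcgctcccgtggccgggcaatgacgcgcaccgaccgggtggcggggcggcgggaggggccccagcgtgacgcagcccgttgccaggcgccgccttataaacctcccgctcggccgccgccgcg
Mef2a promoter, chr7:67372809-67373108, minus strand: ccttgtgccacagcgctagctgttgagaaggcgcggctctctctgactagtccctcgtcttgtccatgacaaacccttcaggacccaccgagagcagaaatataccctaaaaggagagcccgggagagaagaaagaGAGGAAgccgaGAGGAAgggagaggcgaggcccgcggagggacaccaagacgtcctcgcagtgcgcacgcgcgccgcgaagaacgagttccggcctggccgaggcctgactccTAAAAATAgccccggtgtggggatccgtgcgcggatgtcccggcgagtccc
Mef2c promoter at the first of 3 start sites, chr13:83503784-83504083, plus strand: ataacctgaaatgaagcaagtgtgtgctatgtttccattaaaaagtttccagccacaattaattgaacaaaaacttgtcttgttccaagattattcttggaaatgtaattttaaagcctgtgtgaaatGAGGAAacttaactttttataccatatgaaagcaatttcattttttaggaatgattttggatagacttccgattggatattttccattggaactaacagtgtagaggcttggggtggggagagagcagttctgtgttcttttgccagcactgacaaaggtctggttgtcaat
Promoters were found for 7 of the 9 genes, with 13 start sites in all. They were searched on both strands for GAGGAA, which 28.3% of the 32851 promoters in the table hold, TATTTNTA (5.99%), the C/EBP letters TTGCNNAA (10.8%), the IRF pair of GAAA cores set 2 bases apart (3.44%), the RUNX letters TGTGGT (16.8%), the MAF letters TGCTGAC (4.67%), the NF-kappaB pair GGG and TTTCC set 2 bases apart (1.63%) and the cyclic AMP response element TGACGTCA (1.79%). The Mef2a promoter held 2 PU.1 matches and 1 MEF2 match, 2 of the 3 Mef2c promoters held 1 PU.1 match each, and of the 2 Runx1 promoters one held 2 RUNX matches and the other 1 PU.1 match. The promoters of Sall1, Irf8, Cebpa and Cebpb held none of these letters. By base composition, the Cebpb promoter was 80.7% G or C and the first Mef2c promoter 35.7%, against a median of 52.7% over all promoters.

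Barcodes with at least 500 UMIs and 100 genes were taken as cells, which gave 320 KO LPS cells and 1427 WT LPS cells with 381305 and 1989011 UMIs. The median depth was 963.5 and 1065 UMIs per cell, and the deepest cells held 4292 and 27757 UMIs. The study called cells by another method and kept more of them in both libraries, so that barcodes left out here may include cells of the study. Park7 itself had 1 UMI in the KO LPS cells and 323 in the WT LPS cells, as the labels require. Microglial markers such as C1qa and Cx3cr1 were detected in 319 of the 320 and 1425 of the 1427 cells, and the summed markers of monocytes, lymphocytes, neurons, oligodendrocytes and border macrophages reached at most 102 UMIs per 1e6 UMIs (CPM) in either library. Neutrophil markers had 0 UMIs in the KO LPS cells and 64.4 CPM in the WT LPS cells, 48.4% of them in 3 cells. Choroid plexus markers summed to 2119 CPM in the KO LPS cells and 14.6 in the WT LPS cells, with 91.6% of the KO LPS UMIs in 3 cells, and endothelial and astrocyte markers were also higher in KO LPS (86.5 against 15.1 CPM and 378 against 173 CPM). The endothelial markers had 33 KO LPS UMIs, 63.6% of them in 3 cells. Of the astrocyte UMIs, Slc1a3 alone held 102 of 144 in KO LPS and 279 of 345 in WT LPS, and Aqp4 had 0 in both.

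Of the 9 identity factors, 4 were at least 2-fold higher in KO LPS than in WT LPS (Cebpa, Sall1, Mef2c and Maf), 1 was at least 2-fold lower (Cebpb), and 4 lay within 2-fold (Mef2a, Irf8, Runx1 and Spi1). Among all 9085 genes tested, those with 20 UMIs or more in the 2 libraries together, 13.5% were at least 2-fold higher in KO LPS and 15.3% at least 2-fold lower (28.8% either way). At 1.5-fold, 5 factors were higher and 1 was lower, where 26.2% and 25.8% of all genes were (51.9% either way). Ratios are given as KO LPS over WT LPS. On the log2 scale their median was 0.83 over the 9 factors and 0.03 over all genes tested, whose log2 ratios had an SD of 1.17. Among the 3427 genes with at least as many UMIs as the scarcest factor, 8.58% were at least 2-fold higher and 15.6% lower. Together the 9 factors took 6724 CPM in the KO LPS cells and 3941 CPM in the WT LPS cells. Scaling the libraries by TMM or by DESeq2 size factors lowers every log2 ratio by 0.22 or 0.21. This moved no factor across the 2-fold line, but placed Runx1 below 0.

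**Figure D1:**
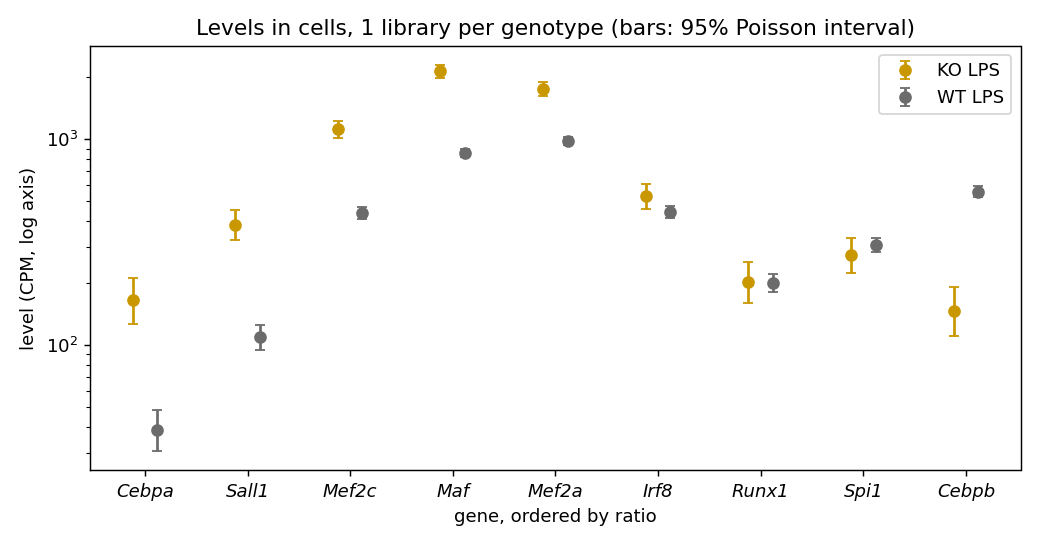
Level of each factor in the cells of KO LPS (yellow) and WT LPS (grey) in UMIs per 1e6 UMIs on a log axis, with 1 library per genotype and bars for the 95% Poisson interval. The intervals of the 2 libraries lie apart for Cebpa, Sall1, Mef2c, Maf, Mef2a and Cebpb and overlap for Irf8, Runx1 and Spi1.

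Sall1, the factor that is most particular to microglia, had 147 UMIs in the KO LPS cells and 217 in the much larger number of WT LPS cells. These counts gave levels of 386 CPM (interval 326 to 453) in the KO LPS cells and 109 CPM (95.1 to 125) in the WT LPS cells. Its level was 3.53-fold higher in KO LPS (2.85 to 4.38). The UMIs were spread over many cells, as the 3 cells with the most held 8.16% of them in KO LPS against 5.99% for WT LPS.

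The shared myeloid factors Spi1 and Irf8 were close between the libraries. Spi1 had 105 UMIs (KO LPS) and 612 UMIs (WT LPS) and levels of 275 CPM (225 to 333) and 308 CPM (284 to 333), a ratio of 0.895 whose interval, 0.721 to 1.10, includes 1. Irf8 had 202 and 880 UMIs and levels of 529.8 CPM (459 to 608) and 442 CPM (414 to 473). The Irf8 ratio of 1.20 (1.02 to 1.40) was above 1 beyond counting error, but its log2 ratio was 0.04 after TMM scaling. Runx1, a factor needed early in the macrophage lineage, had 77 and 398 UMIs and nearly equal levels of 202 CPM (159 to 252) and 200.1 CPM (181 to 221). Its ratio was 1.01 (0.780 to 1.29).

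Both MEF2 factors, which also govern muscle and neuronal genes, were higher in KO LPS, Mef2c by more than Mef2a. Mef2a had 669 and 1959 UMIs in the same order, or 1754.5 CPM (1624 to 1893) against 985 CPM (942 to 1030), and its ratio of 1.78 (1.63 to 1.95) stayed under 2-fold. Mef2c had 428 and 876 UMIs, or 1122 CPM (1019 to 1234) against 440.4 CPM (412 to 471), a ratio of 2.55 (2.27 to 2.86). Mef2c therefore made up 39.0% (36.1 to 42.0, Clopper-Pearson) of the Mef2a and Mef2c transcripts counted in KO LPS but 30.9% (29.2 to 32.6) of those counted for WT LPS. Maf, which restrains proliferation of macrophages, had 817 and 1713 UMIs, or 2143 CPM (1998 to 2295) against 861 CPM (821 to 903), and was 2.49-fold higher in KO LPS (2.29 to 2.71).

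The C/EBP factors went in opposite directions. Cebpa had 63 KO LPS UMIs and 77 WT LPS UMIs, giving 165 CPM (127 to 211) and 38.7 CPM (30.6 to 48.4), and was 4.27-fold higher in KO LPS (3.01 to 6.03). Cebpb had 56 KO LPS UMIs and 1107 WT LPS UMIs, giving 147 CPM (111 to 191) and 557 CPM (524 to 590.3), and was 3.79-fold lower in KO LPS (2.90 to 5.05). Of the UMIs of both genes, Cebpa held 52.9% in the KO LPS cells (43.6 to 62.2, 63 of 119 UMIs) and 6.50% in the WT LPS cells (5.17 to 8.06, 77 of 1184 UMIs). With every cell thinned to 500 UMIs, no KO LPS cell and 3 WT LPS cells had a UMI of both genes, while 26 KO LPS and 19 WT LPS cells had Cebpa alone and 22 and 312 had Cebpb alone. As few cells had a Cebpa UMI, few with both could occur, and these counts do not show that the genes exclude each other. The exons of Cebpb overlap those of Peds1 on the opposite strand, and those of Mef2a, Sall1, Runx1, Maf and Cebpa overlap Lysmd4 or non-coding genes (GRCm39, GENCODE vM39). Whether counting used the strand was not given in the sources used here, so that counts of these 6 genes may include reads of the partner.

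Since 1 mouse of each sex was pooled in each library, the differences were also read in cells chosen by sex-linked transcripts, although an ambient UMI can place a cell in either set. In cells with a UMI of Xist, the transcript of the inactive X chromosome of females (209 in KO LPS, 645 in WT LPS), the ratios were 4.51 for Cebpa (2.80 to 7.29), 3.99 for Sall1 (3.03 to 5.26), 2.60 for Mef2c (2.24 to 3.01), 2.45 for Maf (2.21 to 2.71), 1.83 for Mef2a (1.64 to 2.04) and 0.275 for Cebpb (0.197 to 0.375). These were close to the ratios over all cells. Only 12 KO LPS cells had a UMI of a Y-linked gene and none of Xist, against 195 in WT LPS. There the ratio was 11.8 for Cebpa (3.11 to 39.3, from 5 and 9 UMIs), 2.65 for Maf (1.75 to 3.88), 2.64 for Mef2c (1.55 to 4.27) and 0.125 for Cebpb (0.00315 to 0.707, from 1 and 170 UMIs). Runx1 had 0 UMIs in those 12 cells and 64 in the 195, the ratios of Sall1, Spi1 and Mef2a had intervals that included 1, and that of Irf8 was 2.57 (1.36 to 4.49). Cebpa, Mef2c, Maf and Cebpb thus differed in the same direction in both sets of cells, though Cebpa and Cebpb rest on few UMIs in the second. Without any cell that carried a UMI of another cell type's markers (158 KO LPS and 880 WT LPS cells remained), the ratios were 4.41 for Cebpa, 3.31 for Sall1, 2.53 for Maf, 2.41 for Mef2c, 1.90 for Mef2a and 0.345 for Cebpb, which was 0.264 over all cells. The cells kept may still hold ambient RNA of other cell types, and the part of such types in these differences was not tested.

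**Figure D2:**
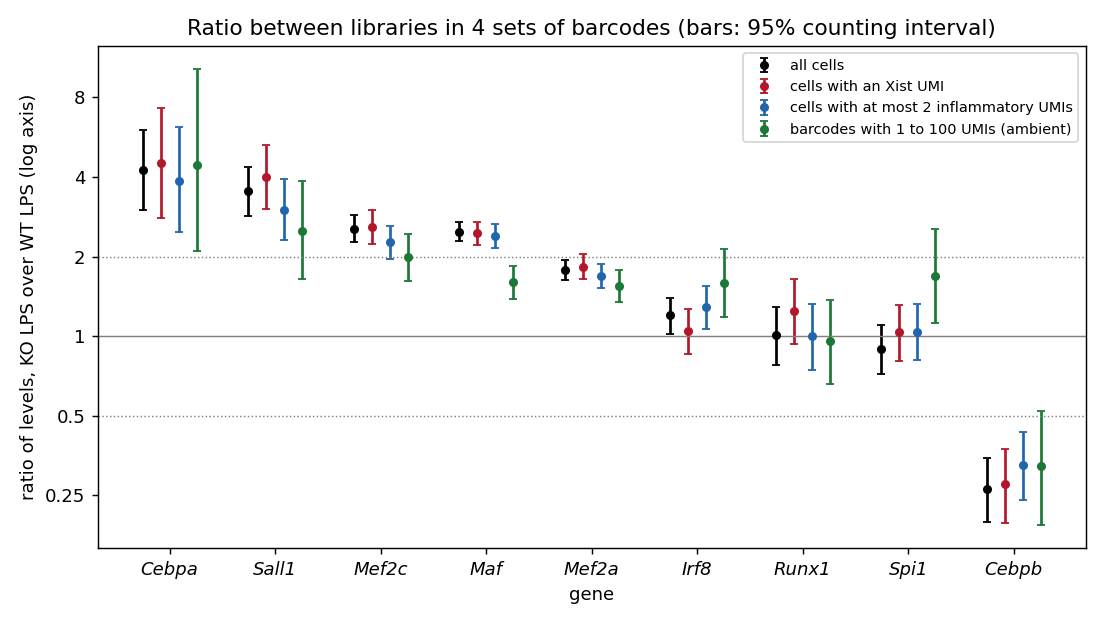
Ratio of each factor's level in KO LPS over WT LPS on a log axis for all cells, for cells with an Xist UMI, for cells with at most 2 inflammatory UMIs and for barcodes with 1 to 100 UMIs, with 95% counting intervals and dotted lines at 2-fold. Cebpa and Sall1 lie above 2 and Cebpb below 0.5 in all 4 sets, while Maf falls from 2.49 in cells to 1.60 in the smallest barcodes.

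RNA set free from cells reaches every droplet, so the levels in cells were set beside those in barcodes with 1 to 100 UMIs, which hold mainly such ambient RNA (198723 KO LPS UMIs and 315748 WT LPS UMIs). The ambient RNA carried the same factors at like levels, 6748 CPM (KO LPS) and 4361 CPM (WT LPS) for the 9 together. In WT LPS, 3 factors stood above it, Spi1 by 1.98-fold (1.48 to 2.71), Cebpb by 1.71-fold (1.39 to 2.11) and Irf8 by 1.46-fold (1.18 to 1.82). The share of all genes above ambient RNA was not counted, so that the number of factors is a description only. In KO LPS no factor stood above ambient RNA beyond counting error, the highest being Cebpb at 1.39-fold (0.828 to 2.42) and Sall1 at 1.28-fold (0.940 to 1.75). Mef2a was lower in cells than in ambient RNA in both libraries (0.842-fold in KO LPS, 0.733-fold in WT LPS), as were Mef2c, Runx1 and Maf in WT LPS (0.786-, 0.761- and 0.685-fold). With ambient barcodes of at most 50 UMIs, the WT LPS ratio was 1.58 for Mef2c, on the other side of 1, and 0.261 for Runx1, 0.456 for Mef2a and 0.727 for Maf. These values have no interval. The WT LPS ambient barcodes had a median of 75 UMIs, against 18 for those of KO LPS. Sall1 and Cebpa had 0 UMIs in the smaller WT LPS set. Between the libraries, the ambient RNA differed in the same direction as the cells for the 6 factors that differed most, with 2 of them rather than 4 past 2-fold higher. The ratios were 4.45 for Cebpa (2.10 to 10.3), 2.51 for Sall1 (1.64 to 3.87), 1.98 for Mef2c, 1.60 for Maf, 1.55 for Mef2a and 0.324 for Cebpb (0.192 to 0.522). For Maf the ambient interval, 1.39 to 1.84, lay wholly below that of the cells. Spi1 and Irf8 had ambient ratios of 1.69 (1.12 to 2.54) and 1.59 (1.18 to 2.13).

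Shares of cells with at least 1 UMI were compared at 500 UMIs per cell. Cebpb was found in 6.88% of KO LPS cells (4.36 to 10.2) and 22.1% of WT LPS cells (19.9 to 24.3), where droplets filled with 500 ambient UMIs would give 5.15% and 15.1%. The WT LPS share of Cebpb was thus above background, whose own interval was 12.5 to 18.0%. For KO LPS the interval of the share overlapped that of its background, 3.22 to 7.76%, which came from 21 ambient UMIs. Its level over ambient RNA, 1.39-fold (0.828 to 2.42), had an interval that included the 1.71-fold of WT LPS. The ambient barcodes were also unlike, with medians of 18 UMIs (KO LPS) and 75 UMIs (WT LPS). Whether the libraries differ in this excess was not tested. Spi1 was found in 11.3% of KO LPS cells (8.0 to 15.2) and 14.1% of WT LPS cells (12.3 to 16.0), against background shares of 12.3% and 7.47%. Irf8 was found in 22.5% (18.0 to 27.5) and 19.6% (17.6 to 21.8), against 21.5% and 14.1%. For these 3 genes the WT LPS share exceeded what ambient RNA alone would give. Sall1 was found in 17.2% of KO LPS cells (13.2 to 21.8) and 5.61% of WT LPS cells (4.47 to 6.93), against background shares of 14.0% and 5.84%, and Maf in 63.8% and 32.8%, against 63.4% and 46.7%. Cebpa (8.13% and 1.54%), Mef2c (39.7% and 20.2%), Mef2a (54.4% and 37.6%) and Runx1 (6.88% and 9.32%) were likewise below background or had intervals that included it in both libraries, and these shares, with those of Sall1 and Maf, are not read as shares of expressing cells. The ambient RNA was of the same sorted preparations and carried the 9 factors at like levels. A share at background therefore does not show that a factor was absent from the cells. Without thinning the shares ran from 15.6% (Cebpb) to 78.8% (Maf) of KO LPS cells and from 5.05% (Cebpa) to 63.0% (Mef2a) of WT LPS cells. Park7, which the KO LPS cells lack, was found in 0 of 320 thinned KO LPS cells, for which the Clopper-Pearson upper limit at this depth is 1.15% and a floor of 3 counts gives 0.938%. In WT LPS it was found in 7.57% of cells, against a background share of 4.64% (3.15 to 6.56). Without thinning, 1 KO LPS cell held a Park7 UMI. A thinned cell held a UMI of a median of 2 of the 9 factors in KO LPS against 1 for WT LPS, and none in 4.06% and 15.2% of cells.

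**Figure D3:**
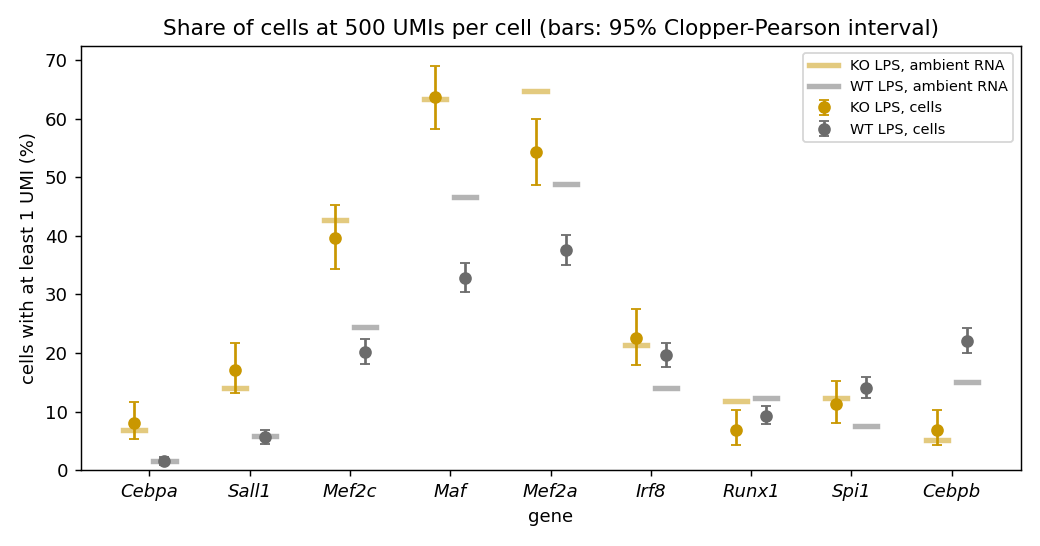
Share of cells with at least 1 UMI of each factor at 500 UMIs per cell, in percent, for KO LPS (yellow) and WT LPS (grey) with 95% Clopper-Pearson intervals, and the share that 500 ambient UMIs would give as a thick line. The WT LPS points of Irf8, Spi1 and Cebpb lie above their lines, and no KO LPS point does so beyond its interval.

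WT LPS cells varied widely in the UMIs they held of a list of 19 inflammatory genes such as Saa3, Lcn2 and Il1b, and the factors were followed along this range. The list summed to 653 CPM over the KO LPS cells and 11262 CPM over the WT LPS cells, and 17 of its 19 genes had 20 UMIs or more, 5 of them with none in KO LPS. Nfkbia, Cd14, Gpr84 and Ccl4 reached that minimum in KO LPS alone (84, 66, 29 and 22 UMIs). The others passed it through WT LPS, where they are high. The direction of the 17 genes is a description only, and each was at least 2-fold lower in KO LPS (15.3% of all genes). Of the 2 genes that did not pass, Il6 lay the other way (9 KO LPS and 8 WT LPS UMIs, 5.87-fold higher, 2.01 to 17.5) and Ptgs2 had 0 and 4 UMIs. At 500 UMIs per cell, 316 of the KO LPS cells and 560 of the WT LPS cells held 0 to 2 inflammatory UMIs, and 457, 253 and 157 WT LPS cells held 3 to 5, 6 to 10, and 11 or more. The ranges are steps of 1 continuous score, and 30.1% of WT LPS cells and 5% of KO LPS cells held 2 or 3 UMIs, next to the lowest step. In WT LPS the level of Cebpb went from 418 CPM in the lowest range through 547 and 640.3 to 726 CPM in the highest, which was 1.74-fold the lowest (1.24 to 2.40). Mef2c was lower in the highest range than in the lowest (0.550-fold, 0.346 to 0.842), but not in steady steps, with 579, 403, 490.1 and 318 CPM. Runx1 was likewise lower in the highest range (0.476-fold, 0.219 to 0.924), with 268, 171, 198 and 127 CPM. For Sall1 the levels were 136 and 51.0 CPM, the latter from 4 UMIs, with a ratio of 0.375 whose interval reached 1.04. Spi1, Irf8, Mef2a and Maf had ratios between 0.767 and 1.39 with intervals that included 1, and Cebpa had 11 UMIs in the lowest and 0 in the highest range.

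The difference between the libraries was then read within the cells of the lowest range alone. There the ratio was 3.87 for Cebpa (2.48 to 6.16), 3.01 for Sall1 (2.31 to 3.95), 2.39 for Maf (2.15 to 2.65), 2.26 for Mef2c (1.96 to 2.61), 1.69 for Mef2a (1.52 to 1.87) and 0.326 for Cebpb (0.241 to 0.436). Cebpb in the 157 WT LPS cells with the most inflammatory UMIs and in the 560 with the fewest was in both cases above its level in KO LPS. Runx1, at 0.998 over all UMIs of these cells (0.747 to 1.32), was 0.614 (0.377 to 0.971) when the cells were thinned, which rests on 26 and 75 UMIs. Thinning also placed Mef2c under 2-fold, at 1.88 (1.51 to 2.35), and gave 1.52 for Mef2a, 2.48 for Maf, 2.84 for Sall1, 4.51 for Cebpa and 0.348 for Cebpb. The WT LPS cells of this range still shared their library's ambient RNA with the inflammatory cells, and its part in these values was not tested.

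**Figure D4:**
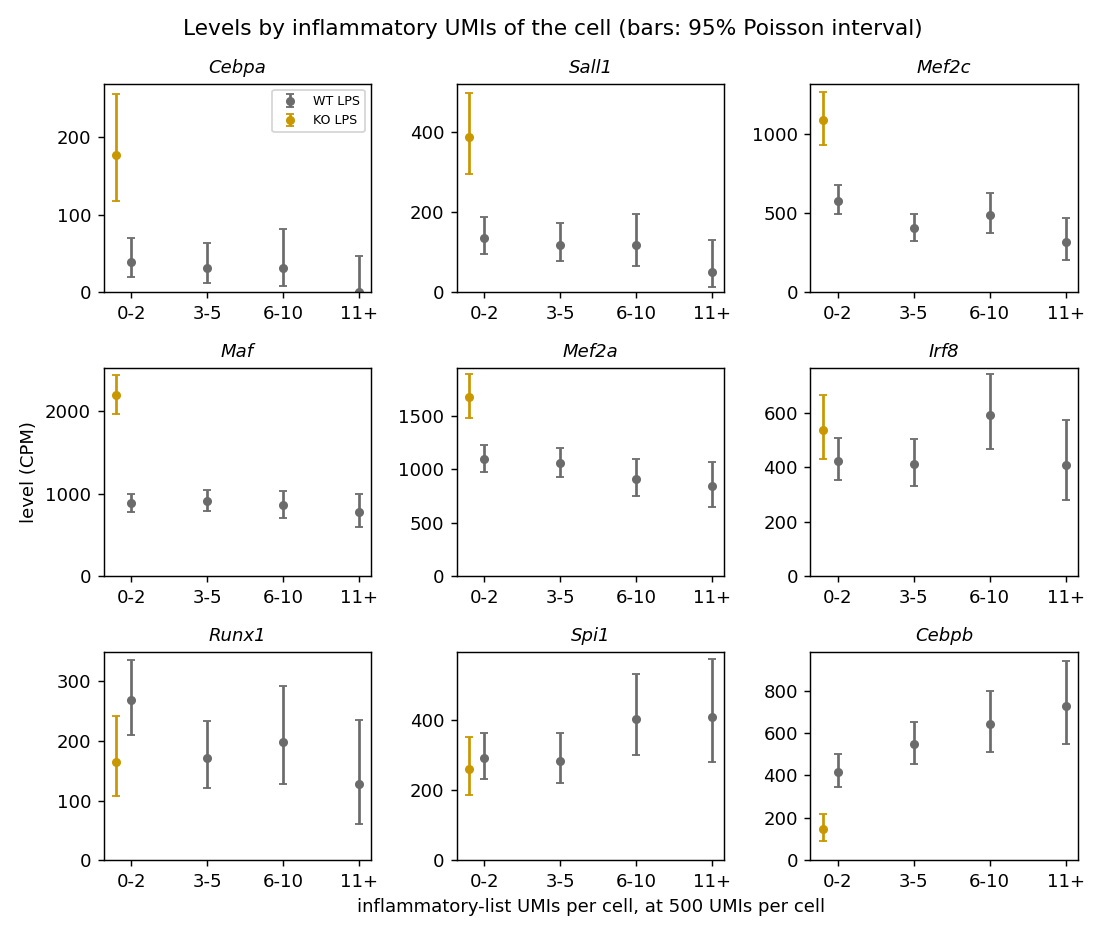
Level of each factor in CPM, from cells thinned to 500 UMIs, against the number of inflammatory-list UMIs in the cell, for WT LPS (grey, 4 ranges) and for the lowest range of KO LPS (yellow), with 95% Poisson intervals. Cebpb climbs from 418 to 726 CPM across the WT LPS ranges and lies at 146 CPM in KO LPS, while Maf stays between 777 and 910.3 CPM in WT LPS and lies at 2196 CPM in KO LPS.

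Within a library, thinned cells with and without a UMI of a factor were compared for the transcripts that accompanied it. As most shares lay at background, a UMI does not mark an expressing cell, and the values describe which UMIs occurred together. WT LPS cells with a Cebpb UMI (315 cells) had 1.22-fold the inflammatory-list level of cells without one (1.15 to 1.28), and also 1.22-fold the level of immediate early genes (1.08 to 1.37) and 1.08-fold that of homeostatic genes (1.02 to 1.14). When the 770 WT LPS cells with at least 1000 UMIs were thinned to that depth, the inflammatory ratio of Cebpb was 1.08. The ratio for Spi1 was 1.12 at both depths, and that for Irf8 was 1.14 at 500 UMIs and 1.02 at 1000. Inflammatory levels were lower in cells with a UMI of Sall1 (0.798-fold, 0.714 to 0.889) and of Mef2a (0.828-fold), and remained so at 1000 UMIs (0.619 and 0.814). For Mef2c and Runx1 the ratios were 0.799 and 0.834 at 500 UMIs, but 0.931 and 0.988 at 1000. For Maf the ratio was 1.00 (0.955 to 1.05) in WT LPS, and in KO LPS 1.84 (1.14 to 3.07) at 500 UMIs but 0.907 at 1000, where 148 of the 320 cells were deep enough to be kept. Homeostatic genes were at 1.19-fold in WT LPS cells with a Sall1 UMI (1.08 to 1.31) and at 1.05-fold in those of KO LPS (0.972 to 1.14). In KO LPS they were at 1.15-fold in cells with a Maf UMI (1.08 to 1.23), and the intervals of the other factors compared there included 1. At 1000 UMIs the KO LPS ratios were 1.10 for Maf and 1.11 for Mef2a, which had been 1.02 at 500.

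Among genes with at least 100 thinned UMIs in the library, the one with the highest ratio in WT LPS cells with a Cebpb UMI was Il1b, the cytokine interleukin-1 beta (2.11-fold, 1.41 to 3.13), followed by Rbm22 and the Fc receptor Fcgr4 (1.90-fold). The chemokine Ccl3 came first for Irf8 (2.28-fold, 1.51 to 3.40) and for Maf (2.13-fold). For the other factors in WT LPS the first genes were Cept1 for Spi1 (2.22-fold), Smarca2 for Mef2a (1.92-fold), Tia1 for Mef2c (2.13-fold), Gapvd1 for Runx1 (2.77-fold) and Cep290 for Sall1 (2.41-fold). With the same minimum, those of KO LPS were Glul for Sall1 (2.14-fold), followed by Frmd4a and the homeostatic marker Tmem119 (1.70-fold, 1.14 to 2.50), Golgb1 for Spi1 (1.91-fold), Capza2 for Irf8 (1.78-fold), Nipbl for Mef2a (1.93-fold), Hnrnpu for Mef2c (1.63-fold) and Lpar6 for Maf (1.87-fold). Scarcer genes are outside this order, and some factors among them had higher ratios in KO LPS, such as Runx1 in cells with a Sall1 UMI (3.54-fold, 1.47 to 8.25, from 11 and 15 UMIs). Cells with a Mef2c UMI had 2.00-fold the Runx1 level of other cells in WT LPS (1.40 to 2.84) and 2.88-fold in KO LPS (1.21 to 7.33), although both genes were at or below background there. Each first gene is the top of 179 to 1427 genes compared and rests on few UMIs, and cells of 1 library are not replicates. Cebpa in either library and Runx1 and Cebpb in KO LPS had fewer than 30 such cells and were not compared.

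The genes that the factors are known to regulate are read against 13.5% of all genes tested at least 2-fold higher and 15.3% lower. Of 4 genes known to depend on Sall1, P2ry12, a purine receptor of resting microglia, had 1463 KO LPS and 807 WT LPS UMIs (9.46-fold higher in KO LPS), and Siglech was 5.86-fold and Tmem119 1.82-fold higher, whereas the fructose transporter Slc2a5 was at 0.913-fold (0.345 to 2.06). The 12 homeostatic genes, which include these 4, held 8 that were at least 2-fold higher and none lower, with a median log2 ratio of 1.39 and P2ry12 and Slc2a5 as their extremes. Of 10 known PU.1 targets, 1 was at least 2-fold higher, the granulocyte colony-stimulating factor receptor Csf3r (2.23-fold), and 3 were lower, few genes to set against those shares, among them Cybb, the catalytic subunit of the phagocyte NADPH oxidase, with 1 KO LPS UMI and 677 WT LPS UMIs. Cybb passed the minimum of 20 UMIs through WT LPS, where it is high. The median of the 10 targets was -0.35. Of 9 targets of C/EBPβ, 7 were in the matrices and 5 passed the minimum of 20 UMIs, which they did through WT LPS alone, so that their lower level in KO LPS is a description only. The KO LPS cells had 0 UMIs of 4 of them, namely the acute-phase genes Saa3 (8367 UMIs in WT LPS), Lcn2 (885) and Hp (66), and Arg1 (23). The fifth, Il1b, had 1 and 322 UMIs. Il6 and Ptgs2, given above, were left out by the same minimum, and Il6 was the one that was higher in KO LPS. Of 12 immediate early genes, which respond within minutes to stress and to tissue dissociation, 10 were tested and 2 were at least 2-fold lower, with a median of 0.05 that falls below 0 under either scaling. Jund was highest (1.88-fold) and Ier3 lowest (2 and 258 UMIs). Ier3 and the other lower gene, Ier2 (19 and 474 UMIs), passed the minimum of 20 UMIs through WT LPS, where they are high, so that their direction is a description only.

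Relatives of the 9 factors and other transcription factors of macrophages, 62 genes of which 58 were in the matrices, gave 45 genes that could be tested. Of these, 10 were at least 2-fold higher in KO LPS (22.2%) and 4 lower (8.89%), against 13.5% and 15.3% of all genes tested, with a median log2 ratio of 0.42. The 4 lower genes, Irf7, Klf4, Ets2 and Id2, passed the minimum of 20 UMIs through WT LPS, where they are high, so that their direction is a description only. By family, the other MEF2 gene that was tested, Mef2d, was 2.42-fold higher, and Sall3 was 1.89-fold higher. The ETS relatives of PU.1 ranged from Ets1 (3.20-fold higher, 2.43 to 4.2) to Ets2 (4 and 57 UMIs, ratio 0.366), with a median of 0.50 over 9 genes. The IRF relatives had a median of -0.54 over 6 genes, from Irf5 (1.27-fold) to Irf7, the regulator of type I interferon genes, which had 1 and 79 UMIs. The MAF relatives ran from Bach2 (2.78-fold higher) to Mafg (0.810), with a median of 0.35 over 5 genes. The C/EBP relatives lay between Cebpg (1.72-fold) and Cebpz (0.921), none past 2-fold, and Cbfb, the partner of Runx1, was at 1.06-fold (0.576 to 1.82). Among 19 other macrophage factors 7 were at least 2-fold higher and 2 lower, with a median of 0.59, from Tfeb, a regulator of lysosomal genes (3.15-fold, 1.86 to 5.25), to Klf4 (3 and 176 UMIs, ratio 0.0889). The second of those lower was Id2 (14 and 512 UMIs), named after its value was seen.

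**Figure D5:**
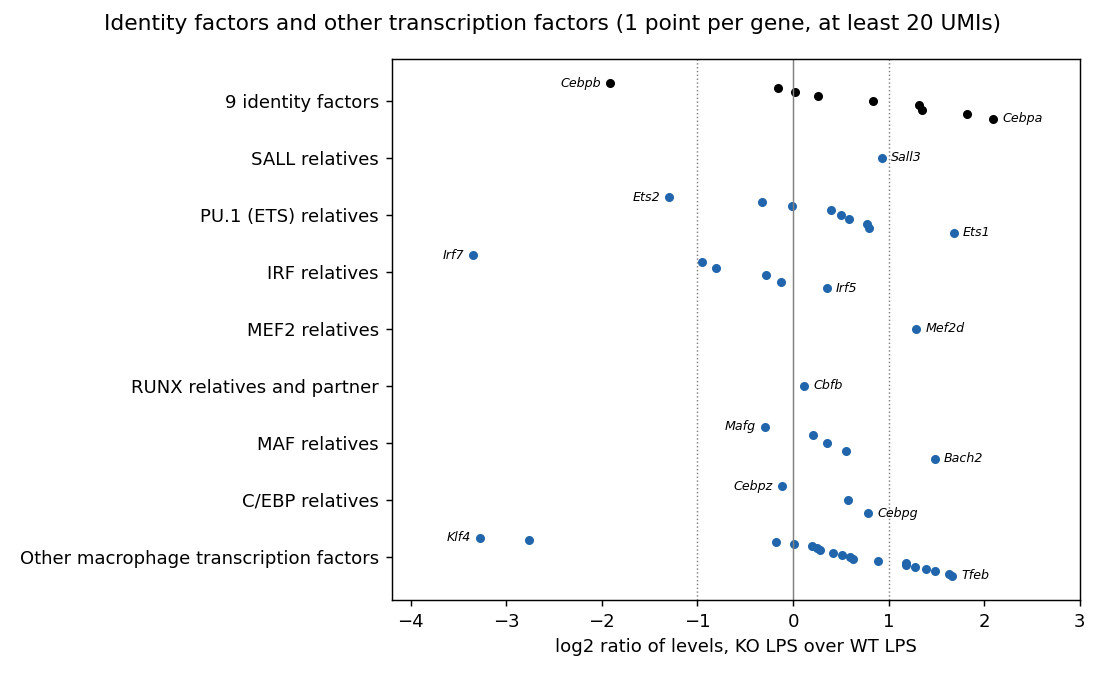
Log2 ratio between KO LPS and WT LPS for the 9 identity factors (black) and for related and other macrophage transcription factors by family (blue), with 1 point per gene, solid and dotted lines at 0 and 2-fold, and the extremes of each family named. Irf7, Klf4 and Id2 (second of its row) are the only points below a log2 ratio of -2, and Cebpa is the only one above 2.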

How the data were processed

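The authors deposited 1 matrix of raw UMI counts per library, with 9999 barcodes each, not filtered to cells. The processing notes of the submitters name STAR, bcl2fastq 2.0 and the builds mm9 and mm10 without roles, and the annotation was not given in the sources used here. Genes missing from 1 matrix were read as 0. Cells were barcodes with at least 500 UMIs and 100 genes. Doublets were not removed. UMIs were summed over the cells of a library and divided by their total (CPM). Levels have exact Poisson intervals, ratios exact conditional binomial ones and shares Clopper-Pearson ones. Log2 ratios used a prior count of 0.5. For shares each cell was thinned to 500 UMIs without replacement. The MAST test over cells that the study used was not run. Software was Python 3.11.15, numpy 2.4.6, scipy 1.17.1, and edgeR 4.0.16 and DESeq2 1.42.0 for scaling factors. Calculations were tested on simulated data. Named genes are the 9 factors, Park7, the highest and lowest gene of each list, and the genes with the highest ratio between cells with and without a factor, and other genes that illustrate a list were named after their values were seen. The factors and gene lists were chosen with earlier results of these data known, and some inflammatory and homeostatic genes are ones that the study picked on these libraries. One gene of the microglial lists is not reported here.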

Additional observations from a re-analysis of the deposited data

Results flagged for a closer look

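Barcodes with more than 100 UMIs that were not counted as cells (443 in KO LPS and 4302 in WT LPS) entered no comparison of the report, though some enter the setting without a UMI minimum, and 6 factors were above the WT LPS level in those of KO LPS. Sall1 was at 239 CPM (KO LPS) and 101 CPM (WT LPS), Cebpa at 95.5 and 40.8, Mef2c at 1413 and 501, Maf at 1662 and 1109, Mef2a at 1891 and 1204, and Irf8 at 639.9 and 333. The ratio between the libraries was larger than in cells for Irf8, at 1.92 (1.44 to 2.52) against 1.20, and for Mef2c, at 2.82 (2.32 to 3.42) against 2.55. It was smaller for Maf, at 1.498 (1.27 to 1.77) against 2.49, for Cebpa, at 2.34 (1.02 to 4.89) against 4.27, for Sall1, at 2.35 (1.44 to 3.74) against 3.53, and for Mef2a, at 1.57 (1.34 to 1.83) against 1.78. Cebpb was 4.12-fold lower in KO LPS (2.14 to 9.12) there, and the ratios of Spi1 (0.995, 0.599 to 1.58) and Runx1 (0.784, 0.468 to 1.25) had intervals that included 1. The share of all genes above the WT LPS level in these barcodes was not counted.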

How the results depend on the processing

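Of 143 recomputed log2 ratios of the 9 factors, 121 stayed close to the reported value, 22 moved and none of the called ones changed direction. TMM scaling gave 0.61 for Mef2a, 1.13 for Mef2c, 1.09 for Maf and a median of 0.61, and DESeq2 size factors 0.63, 1.14, 1.11 and 0.63. Cells with a Y-linked UMI and no Xist UMI gave 1.43 for Sall1, 0.34 for Spi1, 1.41 for Irf8, 0.42 for Mef2a, -2.60 for Runx1 and -2.42 for Cebpb, with 2 factors past 2-fold lower (Cebpb and Runx1). There Cebpb had 1 KO LPS UMI. Runx1 had 0, so that its value is set by the prior count, and the interval of its ratio, 0 to 1.26, included 1. In barcodes with 1 to 100 UMIs the values were 1.32 for Sall1, 0.75 for Spi1, 0.67 for Irf8, 0.63 for Mef2a, 0.99 for Mef2c and 0.68 for Maf, with a median of 0.68 and 2 factors past 2-fold higher. Leaving out cells with a UMI of another cell type gave -0.39 for Runx1 and -1.51 for Cebpb, keeping cells with at most 2 inflammatory UMIs (chosen after seeing the data, as was the use of the smallest barcodes) 1.18 for Mef2c, and keeping barcodes with at least 100 genes and no UMI minimum 1.18 for Maf. The cause of these shifts was not tested. Of 72 recomputed shares of cells 35 moved, all at another depth per cell, where more UMIs raise detection, and of 26 ratios between cells with and without a factor 9 moved at 1000 UMIs per cell. Ambient barcodes of at most 50 UMIs gave no value for Sall1 and Cebpa in WT LPS, where they had 0 UMIs. No paired analysis was possible because each genotype had 1 library. Depth limits Cebpa, Cebpb and Runx1 in KO LPS most, with 56 to 77 UMIs each.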
